A study of Mus musculus with 72 samples.

Results

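The cytosolic ribosomal protein genes were taken as the protein-coding genes of GENCODE M21 whose symbols begin with Rpl or Rps and a number, together with Rplp0, Rplp1, Rplp2 and Rpsa. Symbols of the ribosomal S6 kinases and of pseudogenes were left out. This rule gave 86 genes of the 36047 mouse gene identifiers in the tables, on 19 chromosomes. They comprised 43 large-subunit genes, 31 small-subunit genes, the 3 genes of the large-subunit stalk, and 8 paralogs or retrogenes (Rpl3l, Rpl7l1, Rpl10l, Rpl22l1, Rpl36al, Rpl39l, Rps27l and Rps27rt). The symbol rule also took in Rps19bp1, which encodes a nucleolar protein that binds Rps19 and is not itself a ribosomal protein, and it missed 3 ribosomal proteins with other symbols, which are described separately.

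Each ribosome is built from rRNA and 1 copy of nearly every one of these proteins, so their mRNAs are abundant and are kept close to fixed proportions. Most of these mRNAs start with a cytosine followed by a tract of pyrimidines, the terminal oligopyrimidine or TOP motif. Through this tract, mTORC1 signalling, which lies downstream of growth factor receptors such as EGFR, controls their translation. The genes are also known for their very large number of processed pseudogenes, intronless copies that share most of the coding sequence.

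The mice carried the EGFR DEL19 transgene and had received doxycycline for 25 days, after which micro-CT was used to check that lung tumours had formed. The labels do not name the promoter that drives the transgene or the cells that express it. They were then injected intravenously with 1 of 3 genetic circuits, CMV-GE11-siRE, CMV-siRE or CMV-scrR, at 10 mg/kg every 2 days for 7 injections, with tissue taken on day 14. GE11 is the name of a peptide known to bind EGFR, and CMV-scrR served as the reference circuit, but the labels do not spell out siRE and scrR and name no target gene. Total RNA from lung tumours and from lung, spleen, thymus, kidney and liver was extracted with TRIzol and sequenced from Illumina TruSeq RNA libraries, with 4 libraries for each circuit in each tissue and 72 in all. Whether the 4 libraries within each group represent separate animals is not stated, and p-values therefore measure only the spread between the libraries.

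Each tissue came as its own table of counts divided by size factors, so levels were compared within tissues, and levels set side by side across tissues are descriptions. The approximate depth was 12.2 to 20.9 M reads per library, if the most frequent low value of a library stands for a single read, which was not checked. In each library 82 to 86 members were above 0. Marker genes matched the labels: hepatocyte markers made up 7.46% to 12.3% of the liver total outside mitochondrial genes, kidney tubule markers 1.42% to 2.39% of kidney, and lung epithelial markers 2.21% to 3.77% of lung. Thymocyte markers held 0.346% to 0.745% of thymus and B cell markers 0.297% to 0.513% of spleen. Tumour libraries stood apart from the rest: mitochondrially encoded genes took 8.04% to 37.9% of the total in CMV-GE11-siRE tumours, 44.97% to 73.1% in CMV-siRE tumours and 63.1% to 71.4% in CMV-scrR tumours. The tumour columns summed to 5.87 to 43.8 M after the authors' scaling, against 16.9 to 21.4 M in the other tissues. The CMV-GE11-siRE replicate 4 libraries of kidney and thymus also differed from the other libraries of their tissue, as described with those tissues.

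The start of the transcript was read from RefSeq promoter sequences on GRCm38.p6, which held 66 of the 86 members in 78 entries. The windows run from 10 bases before the annotated start through the first 20 transcribed bases, and they are shown because the TOP tract lies there. Capitals mark the pentamer CTTTC on the coding strand, a TOP-like run. Windows were read for the members described with values, and 4 of these 22 windows hold the pentamer, those of Rpl15, Rpl7a, Rplp2 and Rps27rt.
Rpl15 (chr14:18270967-18270996, minus strand): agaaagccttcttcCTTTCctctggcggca
Rpl7a (chr2:26910797-26910826, plus strand): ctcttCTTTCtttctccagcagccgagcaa
Rplp2 (chr7:141447641-141447670, plus strand): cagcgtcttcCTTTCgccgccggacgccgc
Rps27rt (chr9:114982720-114982749, minus strand): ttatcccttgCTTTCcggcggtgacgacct
Rps6 (chr4:86857348-86857377, minus strand): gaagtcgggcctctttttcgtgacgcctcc
Rps3 (chr7:99483690-99483719, minus strand): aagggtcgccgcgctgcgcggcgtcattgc
Rps24 (chr14:24490668-24490697, plus strand): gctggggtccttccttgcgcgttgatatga
The Rps6, Rps3 and Rps24 windows, of members called in tumours or lung, hold no CTTTC. The pyrimidine run at the annotated start was nevertheless 10 bases in Rps6 and 9 in the Rps24 window shown, against 1 in Rps3. A missing pentamer is therefore not a missing pyrimidine run. In Rpl7a the pentamer lies before the annotated start. The pentamer was in the window of 16 of the 78 member entries (20.5%), against 1230 of all 32851 promoter entries (3.74%). Counting both strands, it was in 23.1% of member entries and 7.31% of all entries. A run of at least 5 pyrimidines at the annotated start was found in 33.3% of member entries and 13.3% of all entries. These are letter matches next to annotated starts, and a missing match says only that the letters are not in that window.

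The share of each library taken by the members varied widely with tissue. As a percentage of the total without mitochondrially encoded genes, it was lowest in liver at 1.09% to 1.27% and highest in spleen at 4.72% to 7.77%. Kidney held 1.27% to 2.27%, lung 1.81% to 3.13%, tumour 2.27% to 4.10% and thymus 2.87% to 6.11%. Each tissue overlapped its neighbour in this order, and across tissues these shares were not tested. The large-subunit genes exceeded the small-subunit genes in summed value in every library, with ratios of 1.44 to 1.65 in tumour, 1.41 to 1.47 in lung, 1.43 to 1.49 in liver, 1.51 to 1.57 in kidney, 1.29 to 1.37 in spleen and 1.38 to 1.44 in thymus. In whole tissue, fewer cells of a type and less RNA per cell cannot be told apart, and this holds for every level below.

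**Figure D1:**
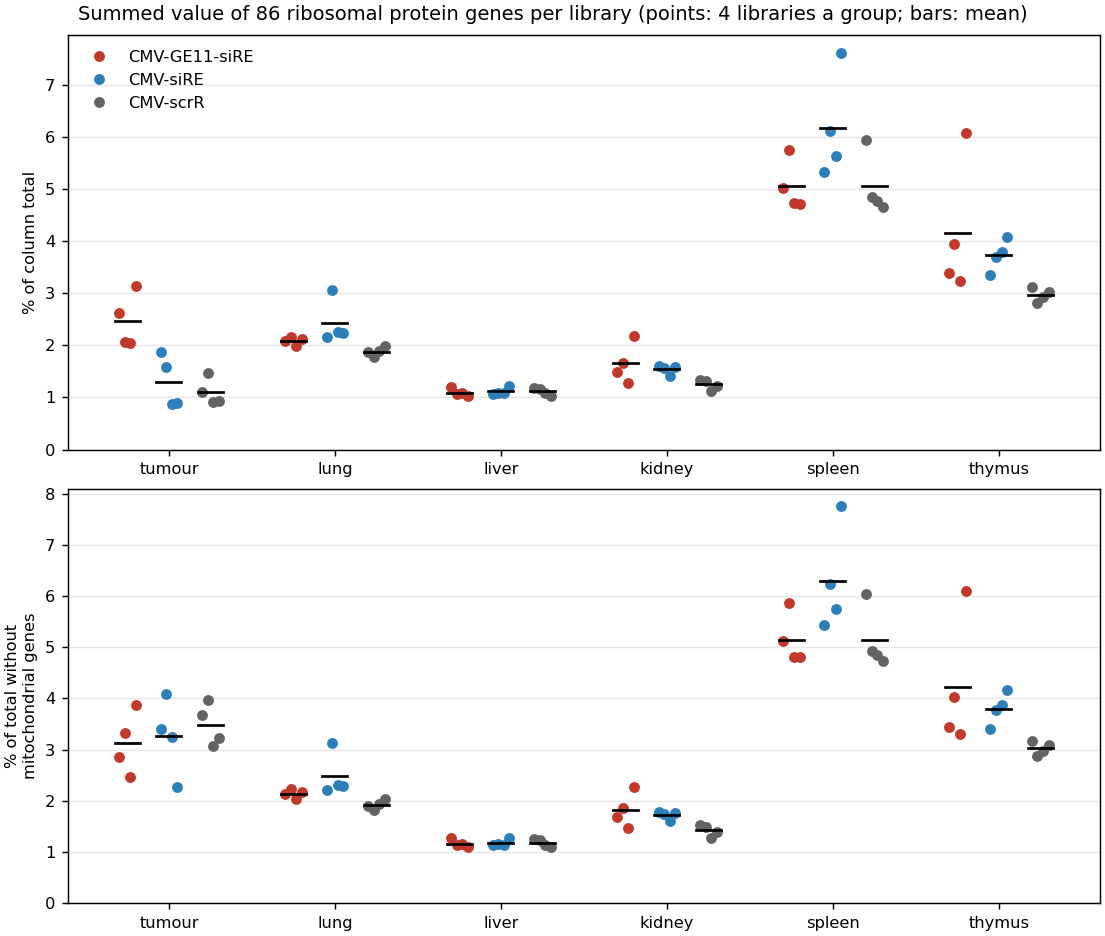
Share of each library taken by the cytosolic ribosomal protein genes, in percent of the column total (upper panel) and of the total without mitochondrially encoded genes (lower panel), by tissue and circuit. Each point is 1 library and each bar is the mean of the 4 libraries of a group; in the lower panel spleen libraries lie highest, from 4.72% to 7.77%, and liver libraries lowest, from 1.09% to 1.27%.

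The order of the members was much the same in all 5 organs. Taken as the share of each gene in the summed value of all members, the 77 subunit and stalk genes had a median ratio of 1.30 between the organ with the highest and the organ with the lowest share. That ratio was under 1.5 for 63 of them and under 2 for 75. Spearman's rho over these 77 genes was 0.940 to 0.978 for the 10 pairs of organs, and 0.627 to 0.707 for the 5 pairs of tumour with an organ. These correlations run across genes that share libraries and are descriptions. Per kb of exon, Rplp1 had the highest mean value in lung (13521), liver (7692), kidney (8721) and spleen (36345), Rplp0 in thymus (20556), and Rps15 in tumour (8379). The length used was the union of all annotated exons of a gene, 499 bases for Rplp1 and 1659 for Rplp0, so this order depends on the annotation. Before division by length, Rplp0 averaged 48929 and Rplp1 18136 in spleen. Rps3a1, a small-subunit gene, was among the 3 highest per kb in tumour, lung, spleen and thymus, and Rps2 in liver and kidney. The 3 lowest per kb were Rpl3l, Rpl39l and Rpl10l in all 6 tissues.

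The order in tumours differed more from that of the organs. Of the 77 genes, 9 held less than 0.5 of their lung share in tumours, among them Rps2, Rpl29, Rps7, Rpl35a, Rpl34, Rpl10, Rpl30 and Rps18. Another 3 held more than 2 times their lung share, namely Rpl38 with a ratio of 2.98, Rpl35 with 2.20 and Rpl41 with 2.19. Coding sequences were searched against the transcripts of all GENCODE M21 genes, whatever their type. A copy was any gene outside the members where at least 95% of bases matched over at least 80% of the coding sequence. By this measure 79 members had at least 1 copy, 7 had none, and the largest number for 1 member was 57. The member held under 50% of the summed value of itself and its copies for 11 of the 77 genes in tumour and for 4 in each of the other tissues.

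**Figure D2:**
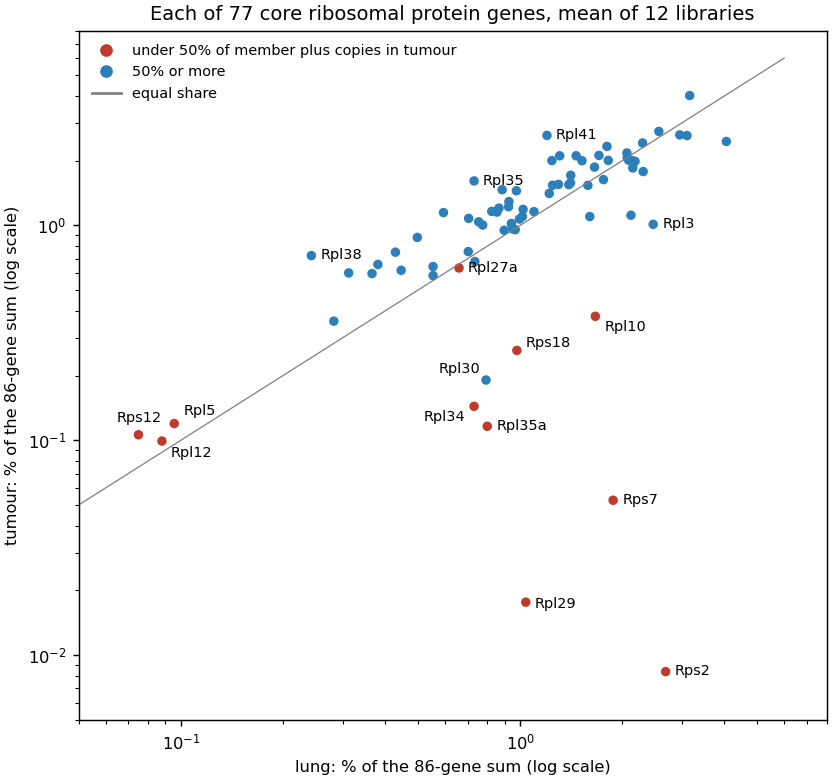
Share of each ribosomal protein gene in the summed value of all members, tumour on the vertical axis and lung on the horizontal axis, both in percent on log axes, each point the mean over 12 libraries and red where the member held under 50% of itself plus copies in tumours. Most genes lie near the line of equal shares, and Rps2, Rpl29 and Rps7 lie far below it.

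Rps2, a core small-subunit protein, shows the size of this shift. It averaged 23.7 ± 10.96 in CMV-GE11-siRE tumours, 22.5 ± 17.5 in CMV-siRE tumours and 7.95 ± 2.92 in CMV-scrR tumours (SD, n = 4 each, value per library). The summed value of its copies was 4381 ± 983, 8026 ± 3155 and 10085 ± 2106 in the same 3 groups. In lung, the gene itself averaged 11007 ± 1048 in the CMV-GE11-siRE group and 10642 ± 798 in the CMV-scrR group, and its copies 40.0 ± 8.38 and 39.0 ± 6.10. Nearly all of the summed value of Rps2 and its copies thus stood under copies in tumours and under the gene in lung.

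For 4 members the single-base differences that separate gene and copy are shown, to give the size of the difference by which reads could be assigned. Positions count from 1 at the first coding base, sequences are from GENCODE M21 coordinates on GRCm38, and capitals mark the differing base. Rps7 and Gm6472 differ at 3 of 582 coding bases, here T26G. Rpl34 and Rpl34-ps1 differ at 2 of 351, here T132C. Rpl3 and Rpl3-ps1 differ at 2 of 1209, here C57A. Rps18 and Gm11361 differ at 3 of 456, here A171C.
Rps7 (chr12:28635615-28635644, minus strand): cgagcgccaagatcgTgaagcccaatggcg
Gm6472 (chrX:152910081-152910110, minus strand): cgagcgccaagatcgGgaagcccaatggcg
Rpl34 (chr3:130729070-130729099, minus strand): gaaagcacctaaatcTgcatgtggcgtgtg
Rpl34-ps1 (chr6:71124726-71124755, plus strand): gaaagcacctaaatcCgcatgtggcgtgtg
Rpl3 (chr15:80082515-80082544, minus strand): gggcttcctgcctcgCaagcgcagcagccg
Rpl3-ps1 (chrX:13202613-13202642, plus strand): gggcttcctgcctcgAaagcgcagcagccg
Rps18 (chr17:33952509-33952538, minus strand): caccaagagggctggAgaactcacggagga
Gm11361 (chr13:28257791-28257820, plus strand): caccaagagggctggCgaactcacggagga
Within the tumours these 4 genes did not move together. Rps18 had values of 121, 84.9, 123 and 94.5 in CMV-GE11-siRE tumours, against 85.0, 59.8, 2583 and 4434 in CMV-scrR tumours. Rpl3 had 2599, 2064, 1340 and 2332 in CMV-GE11-siRE tumours, against 5763, 3539, 651 and 672 in CMV-scrR tumours. The CMV-scrR replicates that were high for Rps18 were thus the low ones for Rpl3, and in both genes the spread within the CMV-scrR group exceeded the difference between the group means. Rps7 averaged 143 ± 34.8 in CMV-GE11-siRE tumours and 87.2 ± 15.0 in CMV-scrR tumours (SD, n = 4 each), with copies at 2228 ± 643 and 2999 ± 467. Values of members with near-identical copies are therefore uncertain, and results are also given for each member summed with its copies.

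The first comparison asked how the tumours that received CMV-GE11-siRE differed from those that received CMV-scrR. On the scale of the deposited values, 58 of the 84 members tested were lower and 1 was higher in CMV-GE11-siRE tumours, but this direction turned with the scaling: with all libraries set to the same column total, 76 members were higher and 0 were lower, and 81.0% of all genes were called higher. The test was limma on log2(value + 1), with Benjamini-Hochberg adjustment over all 14044 genes tested and a threshold of 0.05. Of all genes tested, 41.9% were called in either direction, 19.8% lower and 22.1% higher. The median log2 difference was -0.89 over the members and 0.05 over all genes. Every library of CMV-GE11-siRE lay below every library of CMV-scrR for 60 members and above for 3, against 21.5% and 23.7% of all genes. An unadjusted p under 0.05 was reached by 66 members, against 50.5% of all genes. In share of the total without mitochondrial genes, CMV-GE11-siRE tumours held 2.85%, 3.32%, 2.47% and 3.87% in ribosomal protein genes and CMV-scrR tumours 3.68%, 3.96%, 3.06% and 3.23%, and the groups overlapped.

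Setting libraries to a common total shifts nearly all genes of a library by the same log2 amount. The distance of the members' median below that of all genes is thus fixed under these scalings and is no separate result. Only the sign of the members could change, and it did. With a common column total the median was 1.18 over the members and 2.11 over all genes. With a common total that left out mitochondrial genes it was -0.13 over the members and 0.80 over all genes, with 4 members called higher and 2 lower, against 43.2% and 4.34% of all genes. With each library's mitochondrial share entered as a covariate, the medians were -0.10 and 0.04, and 0 members were called by limma, against 0 of all genes. The mitochondrial share separated the groups completely, as given above, so its part in these differences cannot be told apart from that of the circuit. Lung epithelial markers also moved with the groups: all 8 were above 0, and their sum made up 6.83% to 10.4% of the total without mitochondrial genes in CMV-GE11-siRE tumours, against 0.855% to 1.24% in CMV-scrR tumours. Cycling-cell markers were apart too, at 0.00847% to 0.0258% against 0.00562% to 0.00798% in the same order. Kidney tubule and thymocyte marker sums were also higher, and hepatocyte marker sums lower, in CMV-GE11-siRE tumours without overlap. The part of these markers in the result was not tested.

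**Figure D3:**
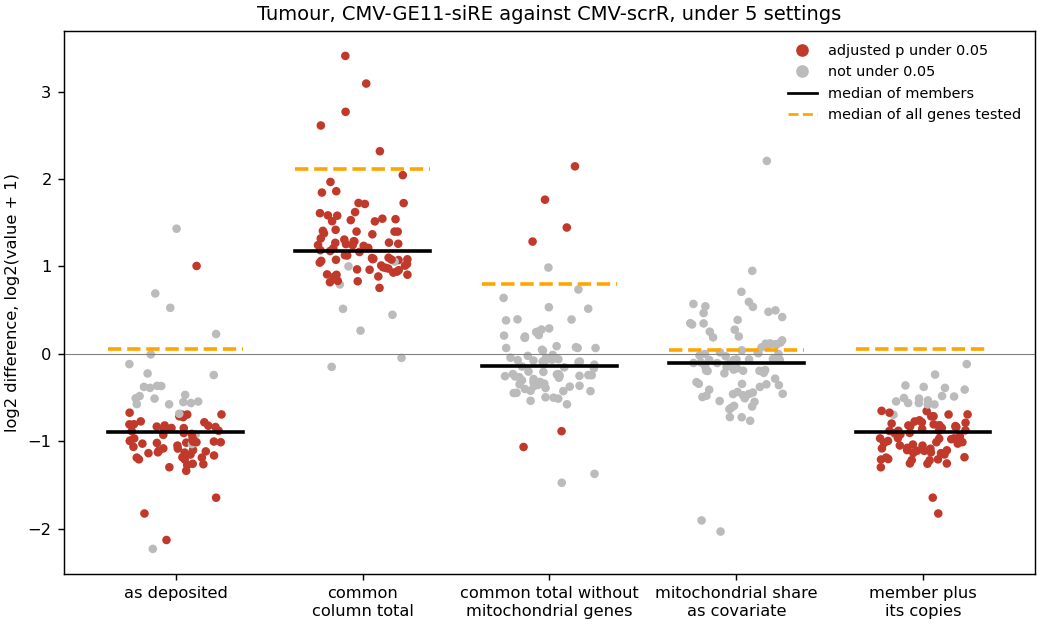
Log2 difference of each ribosomal protein gene tested in tumours, CMV-GE11-siRE minus CMV-scrR, under 5 settings. Points are genes, red where limma's adjusted p was under 0.05, black lines mark the median of the members and dashed lines that of all genes tested; the members' median was -0.89 on the deposited scale, 1.18 with a common column total, -0.13 with a common total without mitochondrial genes, -0.10 after adding mitochondrial share as covariate and -0.89 on the deposited scale with each member summed with its copies.

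By role, 32 of 43 large-subunit genes, 22 of 31 small-subunit genes, 2 of 3 stalk genes and 2 of 6 tested paralogs were called lower on the deposited scale. The median log2 difference was -0.93 for the large subunit and -0.88 for the small subunit, and the difference between the subunits was not tested. Among the stalk genes, Rplp0 had values of 3605, 5106, 2994 and 3098 in CMV-GE11-siRE tumours, against 7594, 4448, 11662 and 9831 in CMV-scrR tumours. The groups overlapped through replicate 2 of each circuit, with a log2 difference of -1.13 ± 0.35 (SE, limma adjusted p = 0.0211). Rplp1 had 2169, 2771, 1819 and 2937 in CMV-GE11-siRE tumours, against 4810, 6971, 5214 and 5215 in CMV-scrR tumours, and every library of the first group lay below the second (log2 difference -1.21 ± 0.25, limma adjusted p = 0.0026). Rplp2, which pairs with Rplp1 on the stalk that recruits elongation factors, differed by -0.51 ± 0.27 (limma adjusted p = 0.147) and was not called.

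The lowest log2 differences among called members with groups apart were in Rpl34, Rps3, Rps4x, Rpl13, Rps29 and Rps6. Rps3, a small-subunit protein at the mRNA entry site (chr7:99477896-99483738), had values of 1243, 2024, 1075 and 1021 in CMV-GE11-siRE tumours, against 4644, 4870, 4424 and 4367 in CMV-scrR tumours. The groups were well apart, with a log2 difference of -1.83 ± 0.33 (SE, limma adjusted p = 0.0012). Rps4x, the X-linked small-subunit gene (chrX:102184941-102189394), had 2120, 3384, 1883 and 2164 in CMV-GE11-siRE tumours, against 7326, 7873, 6742 and 7198 in CMV-scrR tumours. It was lower by the same kind of margin, with a log2 difference of -1.64 ± 0.30 (limma adjusted p = 0.0012). With a common column total the sign turned, to 0.27 for Rps3 and 0.45 for Rps4x.

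Rpl13 of the large subunit fell by 1.34 ± 0.27 on the log2 scale (limma adjusted p = 0.0022), and Rps29, a small zinc-binding subunit protein, fell by 1.30 ± 0.24 (adjusted p = 0.0015). Rps6, the small-subunit protein that S6 kinases phosphorylate, had values of 3001, 4340, 2843 and 4123 in CMV-GE11-siRE tumours, against 8680, 7832, 8856 and 8642 in CMV-scrR tumours. The groups did not overlap, and the log2 difference was -1.27 ± 0.25 (limma adjusted p = 0.0018). Rpl34 had the lowest log2 difference among called members, -2.13 ± 0.63 (limma adjusted p = 0.016), but it has near-identical copies that can share its reads. Its values were 134, 133, 126 and 117 in CMV-GE11-siRE tumours, against 166, 1667, 221 and 1607 in CMV-scrR tumours, so the second group itself split into low and high libraries. Without CMV-scrR replicate 2 it differed by -1.605 and was no longer called, and summed with its copies it differed by -1.21.

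At the other end, Rpl5 was the 1 member called higher. Rpl5, which binds a small rRNA of the large subunit together with Rpl11 and can restrain Mdm2, had values of 296, 323, 353 and 483 in CMV-GE11-siRE tumours, against 161, 127, 234 and 208 in CMV-scrR tumours. The groups did not overlap (log2 difference 1.01 ± 0.35, limma adjusted p = 0.0342). The gene held 10.4% to 19.9% of the summed value of itself and its copies in CMV-GE11-siRE tumours and 2.05% to 4.04% in CMV-scrR tumours. Its copy Gm15500 has an identical coding sequence, and Rpl5 summed with its copies was lower, at -1.22 (limma adjusted p = 0.0027). On the deposited scale, with every member summed with its copies, 66 members were called lower and 0 higher, 58 of them as in the separate test. In the separate test 19.8% of all genes were called lower and 22.1% higher, and the shares with summed copies are not given here. The summed values were not tested under a common column total.

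The remaining named members had the smallest called differences below 0. Rps15, a small-subunit protein near the decoding site, had 3570, 4204, 2832 and 5313 in CMV-GE11-siRE tumours, against 6003, 6632, 6013 and 6093 in CMV-scrR tumours. Its log2 difference was -0.67, and those of Rpl6, Rpl37a and Rpl7a, all of the large subunit, were -0.69 each. Rpsa, the small-subunit protein also described as a laminin receptor (chr9:120127689-120132369), averaged 4990 ± 1713 in CMV-GE11-siRE tumours and 7847 ± 312 in CMV-scrR tumours (SD, n = 4 each). CMV-GE11-siRE replicate 4, at 7318, came close to the lowest CMV-scrR library, at 7578, and the log2 difference was -0.71 (limma adjusted p = 0.0444). These 5 genes were above 0 under a common total without mitochondrial genes, with values from 0.05 to 0.09.

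**Figure D4:**
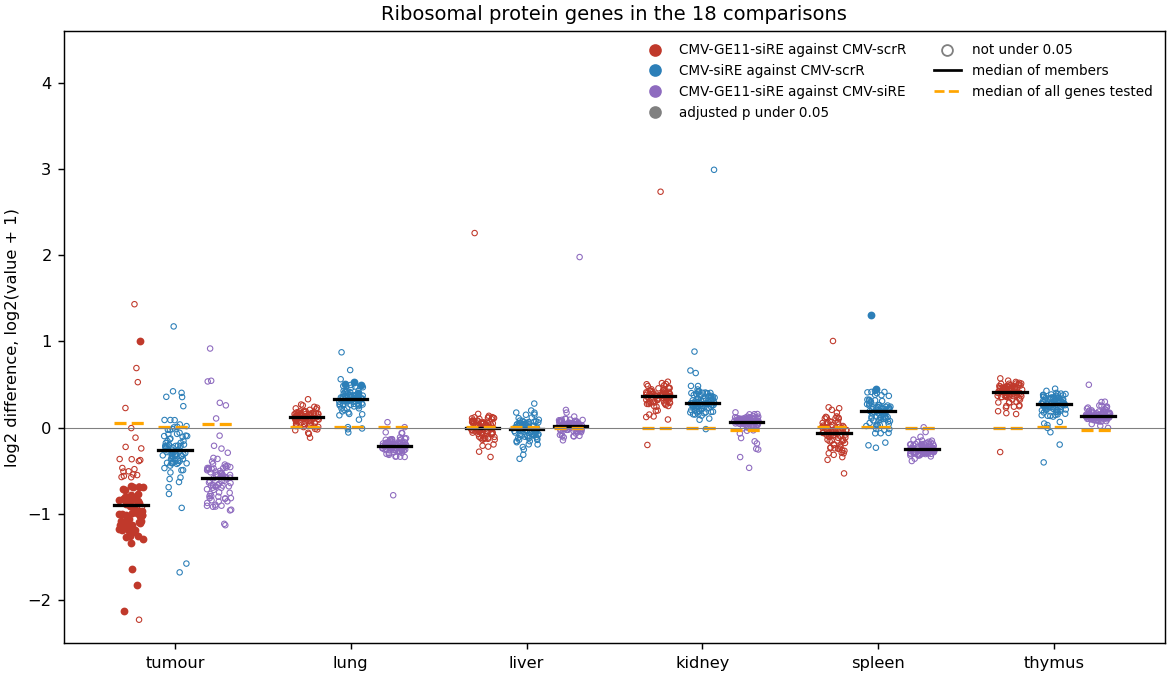
Log2 differences of all tested ribosomal protein genes on the deposited scale for the comparisons of each tissue, with filled points where limma's adjusted p was under 0.05, black lines for the median of the members and dashed lines for that of all genes. In tumours, CMV-GE11-siRE against CMV-scrR, 58 members were called lower and 1 higher, whereas 76 were higher and 0 lower with a common column total; 4 genes were called in lung and 2 in spleen, all in CMV-siRE against CMV-scrR.

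The other tumour comparisons called no member on the deposited scale. Both share libraries with the first comparison. CMV-siRE tumours differed from CMV-scrR tumours by a median of -0.26 over the 84 members and 0.00 over all genes, with 0 members called by limma, 4 at an unadjusted p under 0.05 (21.4% of all genes), and 0.256% of all genes called. CMV-GE11-siRE tumours differed from CMV-siRE tumours by a median of -0.58 over the members and 0.05 over all genes, with 0 called by limma, 47 at an unadjusted p under 0.05 (26.2% of all genes), and 0.0214% of all genes called. CMV-siRE replicate 1 decided the second count: without it, 26 members were lower and 1 was higher, against 11.5% and 11.3% of all genes. In that library lung epithelial markers made up 10.3% of the total without mitochondrial genes, within the range of the CMV-GE11-siRE tumours.

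Genes that act with the ribosome were described in the same tumour comparison from lists chosen with earlier results of these data known, and each count stands against 19.8% of all genes called lower and 22.1% called higher. Of the 3 ribosomal proteins with other symbols 2 were lower, among them Fau, which encodes a small-subunit protein fused to a ubiquitin-like one, at -0.70, while Rack1 differed by -0.28 (limma adjusted p = 0.453). Among 7 elongation factors 3 were lower, including Eef1a1 at -1.30 and Eef2 at -1.03. Among 29 initiation factors 16 were lower and 2 higher, with Eif1ax at -1.59 and Eif3e at -1.49 lower and Eif4g1 at 0.80 and Eif4a2 at 0.73 higher, and the median was -0.55. Of the 42 ribosome biogenesis genes 28 were not called, 7 were higher and 7 lower, with the nucleolar proteins Ncl at -1.09 and Npm1 at -1.05 lower, and Heatr1, at 2.29, and the RNA polymerase I subunit gene Polr1b higher.

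The next lists are read against the same shares of all genes, 22.1% higher and 19.8% lower. Of 16 regulators of mTORC1 and of TOP mRNAs, 5 were higher and 3 lower, with the inhibitor Tsc2 at 2.28 and Rps6kb2 at 1.38 higher and Eif4ebp1 at -1.04 and Rheb, the activating GTPase, at -0.90 lower. Among 78 mitochondrial ribosomal protein genes 19 were lower and 2 higher, with a median of -0.35. Of 10 p53 target genes 3 were lower, among them Ccng1 at -1.52, and of 11 genes of the integrated stress response 1 was higher, Vldlr at 1.40. The scaling that turns the members' sign applies to all of these lists. Outside tumours, calls on these lists were few. In spleen, CMV-siRE against CMV-scrR, Eif3e was higher at 0.32, and Cdkn1a at -0.60, Ppp1r15a at -2.002 and Atf3 at -1.20 were lower. In spleen, CMV-GE11-siRE against CMV-scrR, Bop1 at -0.41, Cdkn1a at -0.995 and Atf3 at -1.34 were lower, and in liver 1 initiation factor gene was higher in that comparison.

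In lung, 4 of the 84 members tested were called higher with CMV-siRE than with CMV-scrR. The log2 difference was above 0 for 81 of 84 members (50.3% of all genes), with a median of 0.33 over the members and 0.00 over all genes. All 4 libraries of CMV-siRE lay above all 4 of CMV-scrR for 61 members, against 5.41% of all genes. The limma test called 0 members lower, while 0.483% of all 16165 genes were called higher and 1.41% in either direction. Without a filter on low values 0 members were called, and with a common column total 12 were called higher, against 0.761% of all genes. An unadjusted p under 0.05 was reached by 66 members, against 17.6% of all genes.

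Rps24, a small-subunit protein whose human gene is mutated in Diamond-Blackfan anaemia, had values of 8406, 11153, 8572 and 8914 in CMV-siRE lungs, against 6460, 6123, 6861 and 6667 in CMV-scrR lungs. The groups were apart, with a log2 difference of 0.50 ± 0.11 (SE, limma adjusted p = 0.0387). Rpl23a, which lies at the exit of the nascent peptide tunnel, had 6223, 8250, 6289 and 6327 in CMV-siRE lungs, against 4693, 4533, 4585 and 4852 in CMV-scrR lungs (log2 difference 0.53 ± 0.12, limma adjusted p = 0.0392). In both genes CMV-siRE replicate 2 stood above the other 3 libraries of its group. Rpl26, of the large subunit, differed by 0.51 ± 0.11 (limma adjusted p = 0.0444).

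The calls in lung rested on all 8 libraries: leaving out any 1 of them ended the calls of Rps24, Rpl23a and Rpl26. Once CMV-siRE replicate 2 was left out, whose ribosomal protein share was 3.13% (2.22% to 2.31% in the others of its group), the median over the members was 0.20. Erythroid markers made up 0.0936% to 0.169% of the total without mitochondrial genes in CMV-siRE lungs and 0.329% to 0.442% in CMV-scrR lungs, and macrophage markers 0.0792% to 0.0935% and 0.0580% to 0.0818%. Hepatocyte markers were apart too, at 0.00163% to 0.00399% and 0.000572% to 0.00112% in the same order. The mitochondrial share of the column total was 2.23% to 2.51% in CMV-siRE lungs and 1.74% to 1.98% in CMV-scrR lungs. All 8 markers of each list were above 0, and the part of these quantities in the result was not tested.

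CMV-GE11-siRE lungs, compared with the same CMV-scrR libraries, had a median of 0.12 over the members. The limma test called 0 members and 0.0% of all genes, and 0 members had an unadjusted p under 0.05, against 7.9% of all genes. Against CMV-siRE lungs, CMV-GE11-siRE lungs had a median of -0.21 with 82 of 84 members below 0 (48.9% of all genes), and limma called 0 members and 0.0619% of all genes, with 25 members at an unadjusted p under 0.05 (9.97% of all genes). Rps24 in CMV-GE11-siRE lungs had values of 6870, 8057, 6354 and 8052, all below the CMV-siRE lungs and overlapping the CMV-scrR lungs.

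In spleen, 2 of 83 members tested were called higher with CMV-siRE than with CMV-scrR, and 0 lower, where limma called 1.73% of all 16015 genes higher and 4.61% in either direction. Rpl15, a large-subunit protein whose human gene is also linked to Diamond-Blackfan anaemia, had values of 8941, 9783, 9275 and 13146 in CMV-siRE spleens, against 7874, 7056, 7748 and 7074 in CMV-scrR spleens. The groups did not overlap, and replicate 4 of CMV-siRE stood above the rest (log2 difference 0.45 ± 0.12, SE, limma adjusted p = 0.0408). Rps27rt, a retrogene of Rps27, had 134, 102, 105 and 135 in CMV-siRE spleens, against 71.996, 67.0, 20.4 and 48.3 in CMV-scrR spleens (log2 difference 1.31 ± 0.34, limma adjusted p = 0.0409). Rpl15 kept its call only without CMV-siRE replicate 1, and Rps27rt only without CMV-scrR replicate 1 or replicate 2, among the 8 tests that left out 1 library. Summed with its copies, Rpl15 differed by 0.35 and was not called. Rps27rt was not summed with its parent Rps27, because copies were taken outside the members. Both coding sequences have 252 bases, and over all spleen libraries Rps27rt averaged 89.5 against 6140 for Rps27. Whether reads of Rps27 were assigned to Rps27rt was not tested.

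Over the members tested in spleen the median was 0.19 for CMV-siRE against CMV-scrR, with 74 of 83 above 0 (50.5% of all genes), and 0.00 over all genes. An unadjusted p under 0.05 was reached by 16 members, against 20.9% of all genes. Scaling to a common column total moved the medians to 0.29 and 0.10 and gave 12 members called higher, against 4.05% of all genes. Without a filter on low values 0 were called. Erythroid markers made up 0.631% to 1.64% of the total without mitochondrial genes in CMV-siRE spleens, against 4.48% to 6.14% in CMV-scrR spleens, with all 8 markers above 0. Thymocyte markers were apart too, at 0.00911% to 0.0113% against 0.00622% to 0.00896%. The mitochondrial share of the column total was 2.05% to 2.26% in CMV-siRE spleens and 1.59% to 1.74% in CMV-scrR spleens. The part of these quantities in the result was not tested. CMV-GE11-siRE spleens had a median of -0.06 against CMV-scrR, where limma called 0 members and 5.76% of all genes, with 2 members at an unadjusted p under 0.05 (24.5% of all genes). Against CMV-siRE they had a median of -0.25, with 82 of 83 members below 0 (50.7% of all genes), and limma called 0 members and 0.112% of all genes, with 11 members at an unadjusted p under 0.05 (9.79% of all genes).

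In thymus, no member was called, although the members lay above CMV-scrR with both other circuits. The median over 83 members was 0.42 for CMV-GE11-siRE against CMV-scrR, with 82 above 0 (49.6% of all genes), and 0.27 for CMV-siRE against CMV-scrR, with 79 above 0 (50.4% of all genes). Groups did not overlap for 39 members in the first comparison, against 3.36% of all genes higher in the same way, and for 46 in the second, against 6.55%. Limma called 0 members in either, with 52 and 0 at an unadjusted p under 0.05 (9.44% and 5.65% of all genes), while 0.0% and 0.00609% of all genes were called. Rplp0 had values of 30494, 35863, 28633 and 66732 in CMV-GE11-siRE thymuses and 31590, 34034, 35648 and 37014 in CMV-siRE thymuses, against 29940, 26165, 24886 and 28223 in CMV-scrR thymuses. The highest value belongs to CMV-GE11-siRE replicate 4.

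That thymus library held 6.11% in ribosomal protein genes, and without it the median of the first comparison was 0.20. Its mitochondrial share was 0.558%, against 1.64% to 1.92% in the other 11 libraries, and its cycling-cell markers made up 0.0843% against 0.161% to 0.340%. CMV-GE11-siRE against CMV-siRE had a median of 0.14 with it and -0.07 without it, with 0 members called by limma, 0 at an unadjusted p under 0.05 (2.81% of all genes) and 0.0% of all genes called. Cycling-cell markers were also lower in the CMV-siRE thymuses, at 0.161% to 0.262%, than in the CMV-scrR thymuses, at 0.293% to 0.328%. All 10 of these markers were above 0, and their part in the result was not tested.

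Kidney gave a similar picture, again with no member called. The median over 84 members was 0.36 for CMV-GE11-siRE against CMV-scrR and 0.28 for CMV-siRE against CMV-scrR, with 83 above 0 in each (49.8% and 49.0% of all genes). Groups did not overlap for 1 member in the first comparison, against 2.77% of all genes higher in the same way, and for 59 in the second, against 8.27%. Limma called 0 members and 0.0% of all genes in both, with 33 and 10 members at an unadjusted p under 0.05 (8.06% and 9.84% of all genes). Rplp0 had values of 12214, 14750, 10923 and 23391 in CMV-GE11-siRE kidneys and 13581, 14326, 13849 and 12508 in CMV-siRE kidneys, against 11852, 11397, 10869 and 11347 in CMV-scrR kidneys. CMV-siRE kidneys were thus all above CMV-scrR kidneys, while CMV-GE11-siRE kidneys were spread on both sides of the CMV-siRE values. The mitochondrial share was 9.60% to 11.68% in CMV-siRE kidneys and 11.72% to 12.57% in CMV-scrR kidneys. Hepatocyte markers made up 0.0333% to 0.0607% and 0.0225% to 0.0292% of the total without mitochondrial genes. Thymocyte marker sums were also higher, and B cell sums lower, in CMV-siRE kidneys without overlap. The part of these quantities in the result was not tested.

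CMV-GE11-siRE replicate 4 of kidney held 2.27% in ribosomal protein genes, and its mitochondrial share was 3.69% against 9.60% to 12.7% in the other 11 libraries. Without it the median of the first comparison was 0.19, and the median of CMV-GE11-siRE against CMV-siRE was -0.10 in place of 0.07. That last comparison had 0 members called by limma, 0 at an unadjusted p under 0.05 (3.97% of all genes) and 0.0% of all genes called. With CMV-siRE and CMV-scrR fitted alone, without the CMV-GE11-siRE libraries in the estimate of the spread, limma called 23 members higher in kidney, against 3.21% of all genes, and 33 in thymus, against 2.87%.

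Liver showed no shift. The medians over 83 members were 0.00 for CMV-GE11-siRE against CMV-scrR, -0.02 for CMV-siRE against CMV-scrR and 0.02 for CMV-GE11-siRE against CMV-siRE. Limma called 0 members in each, with 4, 4 and 0 at an unadjusted p under 0.05 (20.7%, 20% and 7.66% of all genes), although it called 4.23%, 4.04% and 0.0069% of all genes in the same order. Rplp0 averaged 8700 ± 627 in CMV-GE11-siRE livers, 9316 ± 689 in CMV-siRE livers and 9429 ± 556 in CMV-scrR livers (SD, n = 4 each), and the 3 groups overlapped. Liver was also the tissue with the lowest ribosomal protein share and the narrowest range of that share.

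The paralogs were mostly far below their parents per kb, with tissue patterns of their own. Rps27l, a paralog of Rps27 and a p53 target, had 1268 per kb in liver against 734 for Rps27, and 1285 against 966 in kidney, but 1005 against 5887 in spleen. Rpl36al exceeded Rpl36a per kb in lung, liver and kidney, at 1016 against 949, 1167 against 531 and 786 against 573, and lay below it in tumour, spleen and thymus. The lung order came from the lengths used, 1353 bases for Rpl36al and 1655 for Rpl36a over all annotated exons. Before division by length, lung had 1374 for Rpl36al against 1570 for Rpl36a. Rpl22l1 ranged from 125 per kb in kidney to 656 in spleen, against 486 and 1486 for Rpl22, and Rpl7l1 from 159 in tumour to 497 in spleen, against 1983 and 6536 for Rpl7. Rpl3l, a paralog known from striated muscle, reached 14.3 per kb in kidney, with 1.18 to 7.19 in the other tissues. Rpl39l stayed between 0.607 and 6.01 per kb, and Rpl10l, known from testis, was listed at 0 in every tumour, liver, kidney and thymus library.

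**Figure D5:**
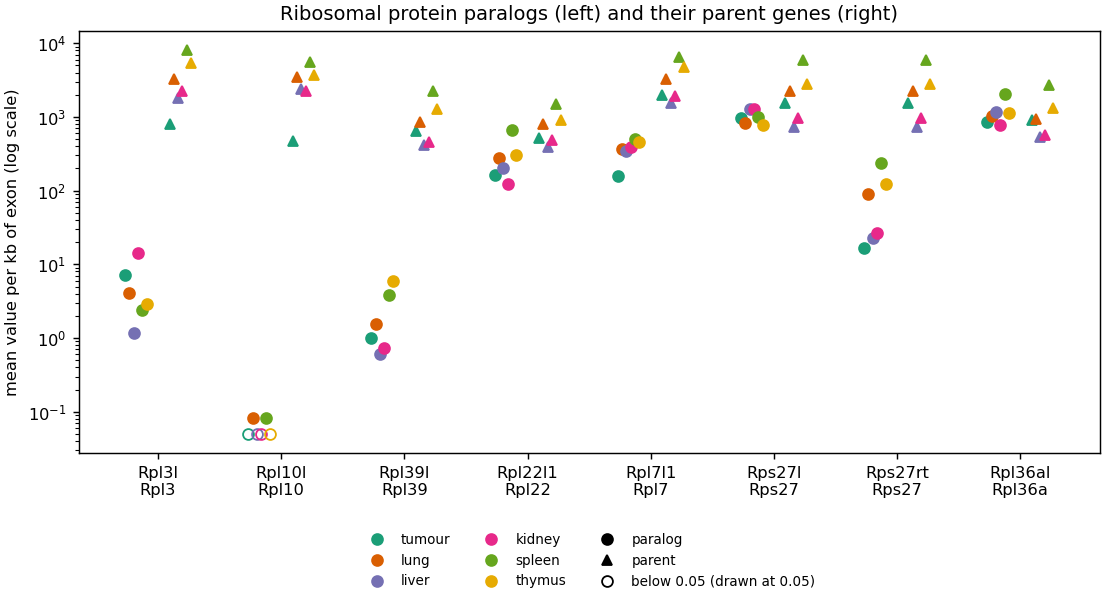
Mean value per kb of exon, on a log axis, of ribosomal protein paralogs (circles) beside their parent genes (triangles) in each tissue, each point the mean over 12 libraries; open circles mark Rpl10l means of 0, drawn at 0.05. Rps27l lies above Rps27 in liver and kidney, and Rpl36al above Rpl36a in lung, liver and kidney. In lung the order of Rpl36al and Rpl36a holds only after division by exon length.

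In tumours, with CMV-GE11-siRE set against CMV-scrR, Rpl7l1 and Rps27l were the paralogs called lower on the deposited scale, by -1.01 ± 0.29 (SE, limma adjusted p = 0.0131) and -0.78 ± 0.25 (limma adjusted p = 0.0218). Rpl7l1 had values of 357, 416, 277 and 319 in CMV-GE11-siRE tumours, against 877, 562, 588 and 749 in CMV-scrR tumours, with no overlap. Rpl36al and Rpl22l1 differed by -0.47 and -0.24 and were not called, while their parents Rpl36a and Rpl22 differed by -0.68 (limma adjusted p = 0.0567) and -0.91 (limma adjusted p = 0.0107). Whether a paralog differed from its parent was not tested. Rps19bp1 differed by -0.12 (limma adjusted p = 0.74) in that comparison. Outside tumours, Rps27rt in spleen was the only paralog called in any comparison of these 6 tissues, and Rps19bp1 was called in none.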

How the data were processed

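Per the labels, RNA from 6 tissues was sequenced with 4 libraries for each of 3 circuits. The deposited values have the unit of a signal: read counts that the authors divided by size factors, 1 table per tissue. DESeq2 is named in the submitters' processing notes; the sources used here give neither the aligner and counter nor any version. Low values were not whole multiples of a step, so reads were not recovered and no count test was run.

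Symbols, classes and exon lengths came from GENCODE M21. The exon length of a gene was the union of all its annotated exons, so levels per kb depend on how many exons are annotated. Within each tissue, genes reaching 10 in 4 or more of the 12 libraries were tested with limma 3.58.1 (R 4.3.3) on log2(value + 1), all 12 libraries in 1 fit, with Benjamini-Hochberg adjustment over all genes tested and a threshold of 0.05. Fold changes on this scale understate the change of low genes. Summed shares, markers and levels per kb were computed with Python 3.11.15 and pandas 2.3.3, and copies were found with blastn 2.17.0 (95% identity over 80% of the coding sequence). The fit was tested on simulated data with 200 changed genes, in CMV-GE11-siRE against CMV-scrR. Of changes of 1 log2 unit, 26% were called in tumour, 48% in thymus, 56% in kidney, 79% in spleen, 82% in liver and 86% in lung. Counts of 0 in thymus and kidney therefore come with a lower chance of a call than in lung.

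Depth, approximated as the column total divided by the most frequent low value, was 12.2 to 20.9 M reads per library. It assumes that this low value stands for a single read, which could not be checked because reads were not recovered. Of the 86 members, 84 passed the filter in tumour, lung and kidney and 83 in liver, spleen and thymus. Rpl10l and Rpl39l passed in none, and Rpl3l passed in tumour, lung and kidney. Members, lists and tests were chosen with earlier results of these data known. Named members were the 6 highest and 6 lowest called differences with groups apart in tumours, CMV-GE11-siRE against CMV-scrR, and the 3 highest and 3 lowest elsewhere, plus the stalk genes, Rpsa, paralogs with parents, Rps19bp1 and the 3 highest and 3 lowest levels. Some genes that this rule names are not reported here. Rps2, Rps7, Rps18 and Rpl3 were described for their copies after their values were seen.

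Alternatives were a pseudocount of 0.1, no filter, rescaling to a common total with or without mitochondrial genes, the mitochondrial share as a covariate in tumours, a replicate block, only the 8 libraries compared, and leaving out each library. Members summed with their copies, and omission of the CMV-GE11-siRE replicate 4 libraries of kidney and thymus, were added after seeing the data.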

Additional observations from a re-analysis of the deposited data

Results flagged for a closer look

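Of 72 groups of 4 libraries checked, 7 held 1 library whose distance from the nearest other exceeded Dixon's 95% critical share of the group's range; chance gives about 1 in 20. CMV-siRE replicate 2 of lung stood apart in ribosomal protein share, at 3.13% against 2.22% to 2.31%, in Rpl26, at 6115 against 4533 to 4747, and in Rpl23a, at 8250 against 6223 to 6327. CMV-siRE replicate 4 of liver had a share of 1.27% against 1.13% to 1.15%, and CMV-scrR replicate 1 of spleen 6.04% against 4.72% to 4.93%. CMV-scrR replicate 4 of kidney had a ratio of large to small subunit of 1.57 against 1.53 to 1.54. Rps15 in CMV-scrR replicate 2 of tumour was 6632 against 6003 to 6093.

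For 7 named members every CMV-GE11-siRE library lay below every CMV-scrR library in tumour and above every one in thymus, on the deposited scale. The thymus log2 differences were 0.39 for Rpl34, 0.46 for Rps3, 0.46 for Rpl13, 0.40 for Rps6, 0.49 for Rps15, 0.40 for Rpl7a and 0.51 for Rpsa. The difference between the tissues was not tested, none of the thymus values was called by limma, and the tumour direction of Rps3, Rpl13, Rps6, Rps15, Rpl7a and Rpsa turned with a common column total.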

How the results depend on the processing

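For the 15 comparisons with 0 members called, 222 of 227 counts under the alternatives were again 0. For the 3 with members called, 17 of 46 counts stayed within 1.5 times the count reported. Of 282 values of named members, 141 kept their direction and call, 121 lost the call and 20 turned in direction. In tumours, CMV-GE11-siRE against CMV-scrR, the count of 59 became 76, all higher, with a common column total, 6 with a common total without mitochondrial genes and 0 after adding mitochondrial share as covariate, and ranged over 42 to 61 when 1 library was left out. CMV-GE11-siRE against CMV-siRE in tumours gave 68 and 1 under the first pair of scalings and 0 to 27 with 1 library left out. These counts take both directions, and the shares of all genes called under the 2 scalings are not given here. Column totals averaged 7.10 M in CMV-GE11-siRE tumours and 23.8 M in CMV-siRE tumours, so a common column total raised the first group relative to the second. In lung, CMV-siRE against CMV-scrR, the count of 4 became 0 without a filter, 0 with the replicate block and 12 under either scaling, and 0 to 1 with 1 library left out. In spleen, the same comparison gave 0 without a filter, 1 with the replicate block, 12 and 14 under the scalings, 0 with only 8 libraries, 1 with members summed with copies and 0 to 1 with 1 library left out. With only 8 libraries, CMV-siRE against CMV-scrR gave 23 in kidney and 33 in thymus.

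Shares of ribosomal protein genes without mitochondrial genes in the total were 3.13%, 3.26% and 3.48% in tumours (CMV-GE11-siRE, CMV-siRE and CMV-scrR), and 1.72% and 1.42% in kidney (CMV-siRE and CMV-scrR). With a common column total the tumour values were Rps3 0.27, Rps4x 0.45, Rpl13 0.75, Rps29 0.79, Rps6 0.82, Rps15 1.42, Rpl6 1.40, Rpl37a 1.40, Rpl7a 1.40 and Rpsa 1.38. Without mitochondrial genes in the total they were Rps15 0.088, Rpl6 0.068, Rpl37a 0.067, Rpl7a 0.067 and Rpsa 0.047. With the covariate they were Rps3 0.12, Rpl5 -0.19, Rpl6 0.0073 and Rpl7a 0.015, and Rpl5 with its copies was -1.22. The cause was not tested. Within each tissue, same-numbered libraries of different circuits did not deviate together (correlations -0.28 to 0.27), so the numbers gave no pairing between circuits. Whether a number marks the same animal in different tissues was not tested.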
